A study of Saccharomyces cerevisiae with 25 samples.

Results

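Transcripts of budding yeast were compared between 3 libraries taken 135, 150 and 165 min after transfer to medium without phosphate and 3 taken earlier in the same starvation, at 75, 90 and 105 min. These 6 libraries were chosen by sampling time alone from a course of 25. The library from 120 min is used as the point between the 2 windows. Every library came from total RNA of 1 Saccharomyces cerevisiae strain of the BY4741 background, a haploid laboratory strain of mating type a, with the genotype pho84pr-YFP, delta-phm3. The strain thus carries a yellow fluorescent protein under the promoter of PHO84, and PHM3 is an older name of VTC4, which makes the polymerase subunit of the vacuolar polyphosphate complex. All 6 libraries share this genotype, and no strain with an intact gene is compared here. Cells had been grown with high phosphate, washed and moved to medium without it, and 1 library at 0 min represents the high phosphate culture. No time point has a second library, and whether each came from a culture of its own is not given. Neighbouring times therefore stand in for replicates, so a p-value reflects only how far these 6 libraries spread, which may be technical, and real change inside a window widens that spread.

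In budding yeast, falling phosphate leads the inhibitor Pho81 to restrain the kinase Pho85 with its cyclin Pho80, so that the transcription factor Pho4 stays in the nucleus and, with Pho2, switches on the PHO regulon of phosphate transporters, phosphatases and polyphosphate enzymes. Growth signals from the Tor and protein kinase A pathways keep ribosome production high, and when these signals weaken, genes for ribosomal proteins and for ribosome assembly are repressed while stress genes driven by Msn2 and Msn4 are switched on. Vacuolar polyphosphate is a phosphate store that yeast can draw on when phosphate runs out.

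The deposited values are log2 RPM, the log2 of reads per 1000000 listed reads, and a gene with fewer than 10 reads in a library has no value. The depth implied by the values was lowest at 75 min (543875 reads) and highest at 105 min (1911747) in the early window, was 1357158 reads at 120 min, and lay between 746734 and 1007192 in the late window. Between 4682 and 5336 genes were listed per library. The lowest listed level was 4.20 log2 RPM at 75 min, 3.26 at 90 min and 2.39 at 105 min, and 3.74, 3.31 and 3.61 at 135, 150 and 165 min. Some values given below lie at or just above these limits and rest on about 10 reads. Among them are levels of MSN4, HEF3, ATG34 and GLC3 at 75 or 90 min. All 6 markers of mating type a, MFA2 and STE2 among them, were listed in all 6 libraries. Of 4 alpha markers, the pheromone genes MF(ALPHA)1 and MF(ALPHA)2 were listed in none. SAG1 was listed in 2 early and 3 late libraries, and STE3 in all 6. Together the alpha markers took 0.0046% of the reads at 75 min and 0.0077% at 165 min, against 0.322% and 0.595% for the a markers. VTC4 (chromosome X, 411234 to 413399) was nevertheless listed in every library, at 8.29, 8.39 and 8.08 log2 RPM at 75, 90 and 105 min and at 7.66, 8.06 and 7.97 at 135, 150 and 165 min. The label and the reads thus differ, so the results belong to the libraries labelled phm3_del. The files hold no read positions, and the extent of the deletion is not given. The 75 min library stood apart within its window. Over 2205 genes listed in all 25 libraries, the levels at 90 and 105 min correlated at r = 0.982 across genes, those at 75 min correlated with them at 0.959 and 0.949, and those at 75 min correlated with 135 min at 0.799 against 0.687 for 90 min. These correlations are across genes, which are not independent, and serve as a description. Without 75 min, none of the 39 gene lists had fewer genes called higher in the late window, and many had more. The count went from 27 to 31 for proteasome genes and from 17 to 22 for the respiratory chain and ATP synthase. Only some of the counts without 75 min are given below.

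Ribosome genes fell and stress, storage carbohydrate, vacuolar and phosphate genes rose between the windows, beside many genes outside any list described here. Of 4482 genes listed in all 6 libraries, 1060 were higher at 135 to 165 min, which is 23.7% of those tested, and 542 were lower, which is 12.1% (limma, Benjamini-Hochberg adjusted p under 0.05, called adjusted p from here on). At least 2-fold, 546 were higher and 389 lower, and at least 4-fold 74 and 152. Past 4-fold, falls outnumbered rises. In none of the 39 gene lists were 801 of the higher and 212 of the lower genes. The levels of the windows did not overlap for 1494 higher genes (33.3%) and 716 lower genes (16.0%). Each value is relative to the listed reads of its library, so a fall of abundant transcripts lifts the values of the rest, and the median tested gene stood 0.28 higher on the log2 scale in the late window. With each library centred on its median gene, a shift of 0.24, the counts were 697 higher (15.6%) and 738 lower (16.5%), and the share of higher genes among the calls went from 66.2% to 48.6%. All 697 and all 542 of the original lower genes were called under both scalings. The count of higher genes also moved with single libraries, to 1506 without 75 min, 550 without 90 min, 645 without 105 min and 686 without 150 min, while the lower count stayed between 413 and 541 over the 6 libraries left out in turn. In bulk RNA, fewer cells of a kind and less RNA per cell cannot be told apart.

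**Figure D1:**
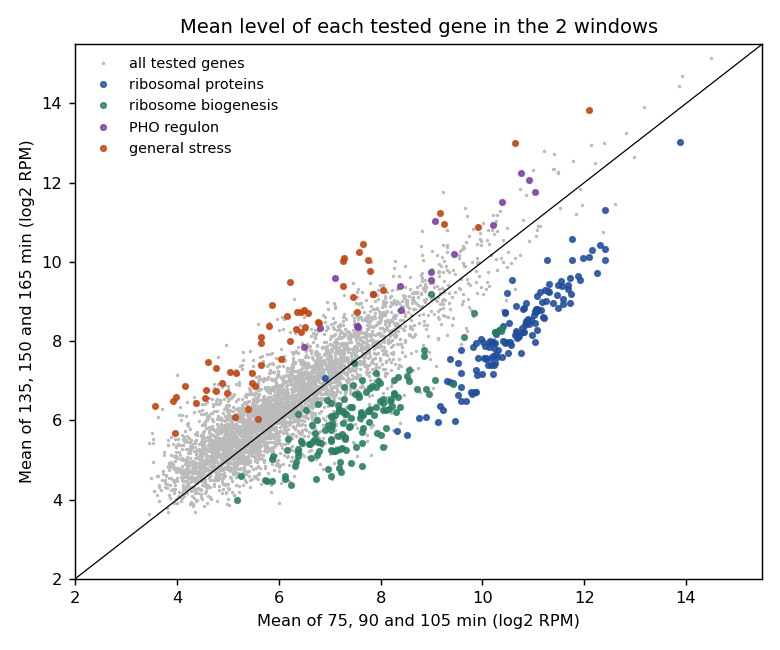
Mean level of each of 4482 tested genes at 75, 90 and 105 min (horizontal axis, log2 RPM) against the mean at 135, 150 and 165 min (vertical axis, log2 RPM), 1 point per gene, with 4 gene lists coloured and the line of equal levels drawn. Ribosomal protein genes form a band well under the line, with 135 of 136 called lower, and general stress genes lie above it, with 54 of 55 called higher.

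At 90 and 105 min the libraries were close to the one before starvation, and at 75 min less so. Across the 2205 genes, the 0 min library correlated at 0.971 and 0.976 with 90 and 105 min, at 0.930 with 75 min and at 0.671, 0.665 and 0.693 with 135, 150 and 165 min. General stress genes, which had risen in the first hour, stood a median of 1.22, 0.31 and 0.21 above 0 min at 75, 90 and 105 min, and ribosomal protein genes at medians of -0.93, -0.20 and -0.02 against it. PHO regulon genes did not return in the same way, with medians 2.39, 1.40 and 2.01 above 0 min at these times. In the late window the medians over 0 min were 2.89, 2.85 and 2.21 for general stress genes, and -2.36, -2.93 and -2.95 for ribosomal protein genes.

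**Figure D2:**
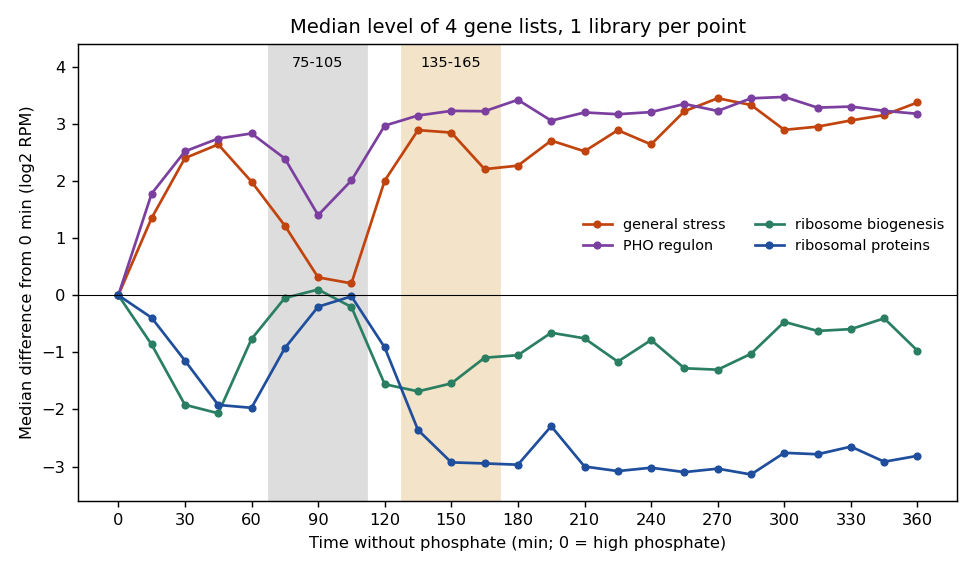
Median difference of 4 gene lists from the 0 min library (vertical axis, log2 RPM) over the time without phosphate (horizontal axis, min), 1 library per point, with the 2 windows shaded. Stress and ribosome lists come back to near 0 at 90 and 105 min and leave it again between 105 and 135 min, while the PHO regulon dips to 1.40 at 90 min without returning.

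Phosphate genes were already induced at 75 to 105 min and rose further. Of the 20 PHO regulon genes, VTC4 not among them, 17 could be tested, and 15 were higher and 0 lower, with a median difference of 1.01 against 0.28 over all tested genes. PHO86 (0.37, adjusted p = 0.236) and VTC2 (0.55, adjusted p = 0.088) were the 2 that did not pass. GIT1, a glycerophosphoinositol transporter gene, was listed in 2 early libraries at a mean of 3.29 log2 RPM and in all 3 late ones at 5.99, CTF19 was listed in none of the 6, and PHM7 in 1 late library. Together the 20 genes took 1.73%, 0.985% and 1.07% of the reads at 75, 90 and 105 min, 2.24% at 120 min, and 2.49%, 2.61% and 2.75% at 135, 150 and 165 min. The count depended on single libraries: it was 16 without 75 min, 6 without 90 min, 8 without 105 min, 9 without 150 min and 9 without 165 min. Centred on the median gene it was 11.

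Among the phosphatases, PHM8, whose product removes phosphate from lysophosphatidic acid and nucleotides, had the largest rise of the regulon. Its levels (chromosome V, 225889 to 226854) were 7.94, 6.66 and 6.72 log2 RPM at 75, 90 and 105 min, 8.76 at 120 min, and 9.58, 9.39 and 9.80 at 135, 150 and 165 min. The windows did not overlap, and the level rose 5.60-fold (difference 2.48, SE 0.33, adjusted p = 0.000238). PHO5, the secreted repressible acid phosphatase (chromosome II, 429548 to 430951), went from 11.39, 10.48 and 10.40 through 11.89 at 120 min to 12.20, 12.18 and 12.34. All 3 late libraries of PHO5 stood above the highest early one, a 2.81-fold rise (1.49, SE 0.28, adjusted p = 0.00197). DDP1, a phosphatase of inositol pyrophosphates and polyphosphate, rose by 1.36 (adjusted p = 0.0068). PHO8, PHO11 and PHO12, named here after their values were seen, rose by 1.36, 1.14 and 1.15. The reads of PHO5, PHO11, PHO12 and PHO3 were whole numbers in 0 of the 6 libraries, so their values may share reads and are not known to be independent. PHO3, the acid phosphatase gene next to PHO5 that is expressed when phosphate is plentiful, went the other way, from 6.03, 6.94 and 8.02 log2 RPM to 6.01, 4.62 and 4.85. Its windows did not overlap, although 135 min stood just under 75 min, and it fell by 1.84 (SE 0.47, adjusted p = 0.0107).

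The transporter genes changed less. PHO84, the high-affinity phosphate transporter (chromosome XIII, 24037 to 25800), was at 9.79, 8.997 and 9.54 log2 RPM early, 9.85 at 120 min and 10.11, 10.23 and 10.29 late. The windows did not overlap, and the rise was 1.70-fold (0.77, SE 0.25, adjusted p = 0.0319). PHO89, a sodium-coupled phosphate transporter, rose by 1.01 (adjusted p = 0.0194), and SPL2, an inhibitor of low-affinity uptake, by 0.75 (adjusted p = 0.0349). PHO90, a low-affinity transporter, fell: its levels were 6.79, 7.06 and 6.51 early, 5.37 at 120 min and 5.51, 5.54 and 5.61 late, a difference of -1.23 (SE 0.23, adjusted p = 0.00176). Its late libraries lay close together and below all early ones. Of the polyphosphate genes, the endopolyphosphatase gene PPN1 rose by 0.83 (adjusted p = 0.0132), and the vacuolar complex subunits VTC1 and VTC3 by 0.73 and 0.72 (adjusted p = 0.0326 and 0.0282). VTC4 itself differed by -0.36 (SE 0.22, adjusted p = 0.231). The calls of PHO84, SPL2, VTC1 and VTC3 were lost when any 1 of the 90, 105, 135, 150 and 165 min libraries was left out (adjusted p between 0.0547 and 0.18). PHO89 lost its call without 90, 105, 150 or 165 min (0.0543 to 0.1003) and PPN1 without 90 or 105 min (0.0667 and 0.0502). Centred on the median gene, PHO84, SPL2, VTC1 and VTC3 did not pass either (0.0667 to 0.102).

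Among the other Pho4 targets, ICY1, of no settled function, rose 5.59-fold, from 6.49, 5.74 and 6.08 log2 RPM to 8.74, 8.45 and 8.57 (2.48, SE 0.25, adjusted p = 6.7e-05). PHM6 rose 3.91-fold (1.97, adjusted p = 0.000417), and GDE1, which splits glycerophosphocholine, 2.83-fold (1.503, adjusted p = 0.00216). Their late levels lay above every early level.

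Of 13 genes of the phosphate signalling pathway, 10 were tested, 5 were higher and 0 lower, with a median difference of 0.71. PLC1, the phospholipase C that starts inositol polyphosphate synthesis, rose by 1.41 (SE 0.24, adjusted p = 0.00111), from 7.34, 6.66 and 7.09 log2 RPM to 8.58, 8.39 and 8.33. PHO85 rose by 1.13 (adjusted p = 0.00304), and KCS1, which makes inositol pyrophosphates, by 1.04 (adjusted p = 0.00865). PHO81 rose by 0.81 (adjusted p = 0.0218) and PHO2 by 0.78 (adjusted p = 0.0421). PHO81 lost its call without 90, 105, 150 or 165 min (0.0591 to 0.119) and PHO2 without the same 4 libraries (0.0546 to 0.17), which left 3 of the 10 in each case. PHO2 also did not pass when centred on the median gene (0.13). PHO4, whose product is regulated mainly by its place in the cell, was at 5.63, 5.14 and 5.79 log2 RPM early and at 6.28, 5.99 and 6.07 late. Its late libraries stood above the early ones by 0.59 in the mean without passing the test (SE 0.24, adjusted p = 0.0755). VIP1 (0.58, adjusted p = 0.0551), IPK1 (0.64, adjusted p = 0.0872) and SIW14 (0.26, adjusted p = 0.384), further enzymes of inositol pyrophosphate turnover, did not pass. PHO80 and ARG82 were listed in 2 early and 3 late libraries, and YDR374C in 1 late library, so these 3 were not tested.

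The ribosomal protein genes showed the deepest fall. Of 137, 136 were tested, 135 were lower and 0 higher, with a median difference of -2.39. Together they took 18.0%, 30.0% and 33.8% of the reads at 75, 90 and 105 min, of which 90 and 105 min are close to the 34.3% at 0 min, then 20.0% at 120 min, and 8.56%, 5.50% and 5.29% at 135, 150 and 165 min. The count was 134 or 135 under each library left out. Of the 12 largest falls with windows that did not overlap, 11 belong to ribosomal protein genes. The other is YBR191W-A, by its systematic name next to RPL21A, which had nearly the same values and was matched to no position in the annotation used. RPS14B, a small-subunit protein gene (chromosome X, 73787 to 74611), was at 9.03, 9.92 and 9.43 log2 RPM early, 7.53 at 120 min, and 6.24, 5.59 and 6.13 late. Its early level was 11.1 times its late level (-3.48, SE 0.28, adjusted p = 3.37e-05). RPL16A, a large-subunit gene whose reads were whole in all 6 libraries, went from 9.41, 10.10 and 10.11 through 8.50 to 6.99, 6.36 and 6.78 (-3.16, SE 0.27). Late levels of both were below every early level. RPS26B, RPL21A, RPL12A, RPL27B, RPS7B, RPS11A, RPS0B, RPS18B and RPS19A fell by between 3.03 and 3.18 on the log2 scale. Most ribosomal proteins are encoded by near-identical gene pairs, and 25 of the 136 tested genes held whole reads in all 6 libraries, so members of a pair are not known to be independent measurements. RPL15B was the tested member that did not pass, named after its values were seen: 7.04, 6.96 and 6.73 early and 7.55, 7.18 and 6.47 late (0.16, adjusted p = 0.693). RPS28B was listed in the early window only, at 4.58, 4.98 and 6.20 log2 RPM, at least 3.25-fold above the mean late listing limit.

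**Figure D3:**
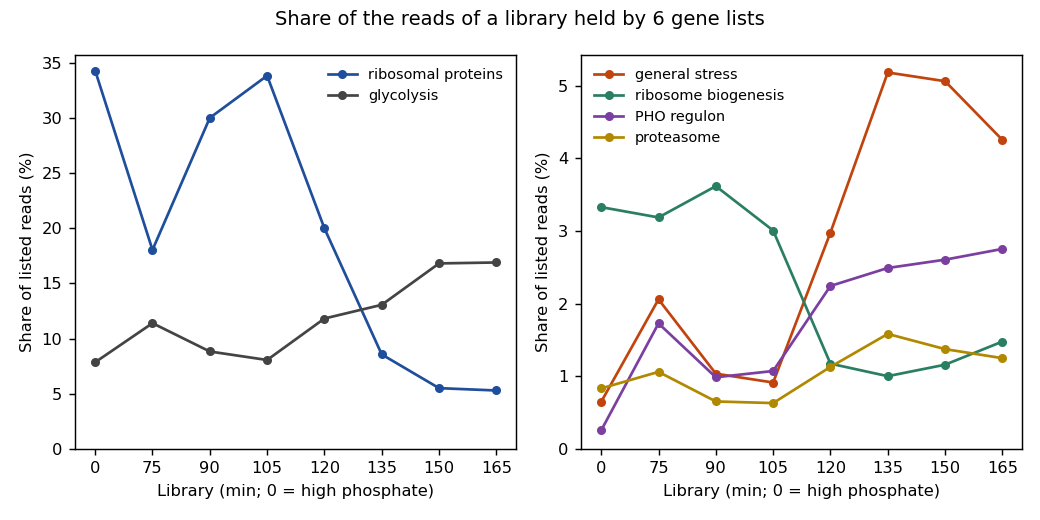
Share of the listed reads of a library (vertical axes, %, starting at 0) held by ribosomal protein and glycolysis genes (left) and by 4 further lists (right), 1 library per point at even spacing. The ribosomal protein share falls from 33.8% at 105 min to 5.29% at 165 min, while the general stress share goes from 0.913% to 4.26% and glycolysis from 8.05% to 16.9%.

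Genes for ribosome assembly fell with them, to a smaller depth. Of 153 ribosome biogenesis genes, 143 were tested, 132 were lower and 0 higher, with a median difference of -1.46. Without 1 library in turn, between 113 and 131 were lower. SRP40, a nucleolar phosphoprotein gene, fell from 7.49, 7.83 and 7.57 log2 RPM through 5.26 at 120 min to 4.01, 5.28 and 5.29 (-2.78, SE 0.33, adjusted p = 0.000134). RRP5, needed for cutting the precursor of ribosomal RNA, fell from 7.61, 8.37 and 8.14 through 6.44 to 4.33, 5.28 and 6.35 (-2.72, SE 0.42, adjusted p = 0.000649). The late levels of RRP5 were widely spread, lowest at 135 min, and still below every early level. ROK1, an RNA helicase gene, fell by 2.53 (adjusted p = 0.000184). IMP3, a factor of the small-subunit processome, was listed only in the early window, at 5.27, 5.29 and 4.59 log2 RPM and at 3.26 at 120 min, at least 2.82-fold above the mean late listing limit.

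Subunits of RNA polymerase I and III and their factors, which transcribe ribosomal RNA and small RNAs, numbered 36, of which 33 were tested, 19 were lower and 0 higher (median difference -0.95). RPA135 and RPA190, the 2 large subunits of polymerase I, fell by 2.75 (SE 0.30, adjusted p = 9.11e-05) and 2.45 (SE 0.25, adjusted p = 8.13e-05), and RPA43 by 2.25. RPA135 was at 7.97, 8.34 and 7.98 log2 RPM early, at 5.47 at 120 min and at 4.74, 5.35 and 5.96 late. MAF1, the repressor of polymerase III, rose from 5.58, 5.33 and 5.44 through 6.82 to 7.04, 7.16 and 7.28 (1.71, SE 0.21, adjusted p = 0.00017). Neither gene had overlapping windows.

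The 300 bases around the start of the 2 ribosome biogenesis genes with the largest falls, from 250 before to 50 after the first base of the annotated gene (RefSeq, build R64, minus strand in both, written along the gene), are shown for the short elements common to this class. Capitals mark GATGAG, read as CTCATC on the other strand, and AAAATTTT. These are the cores of the elements called PAC, bound by Dot6 and Tod6, and RRPE, bound by Stb3.
SRP40 (chrXI:613836-614135): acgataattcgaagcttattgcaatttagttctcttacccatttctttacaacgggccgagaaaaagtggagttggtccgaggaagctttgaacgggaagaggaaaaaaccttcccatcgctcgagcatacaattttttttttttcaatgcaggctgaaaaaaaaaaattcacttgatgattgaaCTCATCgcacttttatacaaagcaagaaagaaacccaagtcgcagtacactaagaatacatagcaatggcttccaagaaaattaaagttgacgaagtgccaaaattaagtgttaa
RRP5 (chrXIII:731074-731373): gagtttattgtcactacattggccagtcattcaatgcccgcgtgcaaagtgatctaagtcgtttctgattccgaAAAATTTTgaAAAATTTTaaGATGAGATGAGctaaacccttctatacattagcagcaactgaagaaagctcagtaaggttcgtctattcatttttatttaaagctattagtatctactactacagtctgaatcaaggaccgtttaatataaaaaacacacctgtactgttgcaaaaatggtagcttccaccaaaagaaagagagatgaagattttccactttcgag
SRP40 holds 1 GATGAG on the other strand and RRP5 holds 2 that overlap, beside 2 AAAATTTT. On either strand, GATGAG stood in 88.8% of 143 ribosome biogenesis windows and in 66.7% of 33 polymerase windows, against 20.3% of 4399 tested genes with a window and 11.0% of 136 ribosomal protein windows. AAAATTTT stood in 76.9%, 42.4%, 10.6% and 6.62% of the same sets. Among all genes called lower 49.8% held GATGAG and 42.2% AAAATTTT. A match is a run of letters and not a measured binding site, and ribosome biogenesis genes are known as a class for these elements.

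Translation factors followed in part. Of 47 genes, 44 were tested, 27 were lower and 1 higher, with a median difference of -0.67. SSB1, a chaperone on the ribosome, fell by 2.17 (SE 0.29, adjusted p = 0.000241), and the elongation factor genes YEF3 and EFT2 both by 1.61 (adjusted p = 0.000627 and 0.00117). The reads of SSB1 and EFT2 were not whole, so near-identical partners may share them. HEF3, the less used copy of YEF3, rose from 4.34, 3.74 and 3.82 log2 RPM to 5.38, 5.72 and 5.46 (1.55, SE 0.24, adjusted p = 0.000642). The lower count was 15 without 90 min, 16 without 105 min and 16 without 150 min.

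General stress genes rose nearly as one list. Of 64, 55 were tested, 54 were higher and 0 lower, with a median difference of 2.06, and between 50 and 54 were higher under each library left out. Their share of the reads went from 2.06%, 1.03% and 0.913% through 2.98% at 120 min to 5.18%, 5.06% and 4.26%. The stress genes stood higher at 75 min than at 90 and 105 min. HSP26, a small heat shock protein gene, was at 7.96, 7.24 and 6.67 log2 RPM early, 8.06 at 120 min, and 10.17, 10.10 and 10.02 late. This was a difference of 2.81 (SE 0.30, adjusted p = 8.9e-05), with the 3 late libraries close together. MSC1, RTN2 and STF2, the last of which protects dried cells, rose by 2.80, 2.79 and 2.74. Outside the list, BDH2, a putative butanediol dehydrogenase gene, YBR285W and YNR034W-A were among the 12 largest rises, at 3.13, 2.93 and 2.80. The exception was YGP1, a secreted glycoprotein gene named after its values were seen, at 5.79, 5.29 and 5.72 early and 6.42, 6.54 and 5.15 late (0.44, adjusted p = 0.346).

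Genes of storage carbohydrates held some of the largest rises. All 15 tested of 20 trehalose and glycogen genes were higher, by a median of 1.57, against 23.7% of all genes. Some of them, GPH1, PGM2 and GLC3 included, also belong to the general stress list, so the 2 lists are not separate results. The windows of 12 of the 15 did not overlap. The count was 10 without 90 min, 11 without 105 or 135 min and 13 when centred on the median gene. GPH1, glycogen phosphorylase (chromosome XVI, 861306 to 864014), went from 7.09, 5.49 and 6.08 log2 RPM through 8.73 at 120 min to 9.97, 9.44 and 9.03. At 9.61-fold (3.26, SE 0.38, adjusted p = 0.000128) this was the largest rise among all tested genes. PGM2, the main phosphoglucomutase, went from 6.61, 5.10 and 5.87 through 8.60 to 9.65, 8.88 and 8.25 (8.36-fold; 3.06, SE 0.40, adjusted p = 0.000239). GLC3, the glycogen branching enzyme, went from 5.52, 3.39 and 4.90 through 6.96 to 7.86, 7.41 and 7.18 (7.35-fold; 2.88, SE 0.44, adjusted p = 0.000616). In each of the 3 genes the late level was highest at 135 min and lowest at 165 min, yet above every early level. Genes of both synthesis and breakdown of glycogen were among those that rose.

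The windows around the starts of PGM2 and GLC3, the 2 leading general stress genes with an AGGGG, are shown with that stress element in capitals, the letters bound by Msn2 and Msn4 (RefSeq, build R64, PGM2 on the minus and GLC3 on the plus strand, written along the gene).
PGM2 (chrXIII:477557-477856): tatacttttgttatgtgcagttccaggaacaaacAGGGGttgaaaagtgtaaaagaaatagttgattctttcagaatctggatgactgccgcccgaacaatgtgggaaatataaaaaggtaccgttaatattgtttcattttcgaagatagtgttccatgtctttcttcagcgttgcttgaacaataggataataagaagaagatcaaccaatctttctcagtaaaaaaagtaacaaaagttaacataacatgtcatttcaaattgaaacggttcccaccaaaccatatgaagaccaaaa
GLC3 (chrV:132870-133169): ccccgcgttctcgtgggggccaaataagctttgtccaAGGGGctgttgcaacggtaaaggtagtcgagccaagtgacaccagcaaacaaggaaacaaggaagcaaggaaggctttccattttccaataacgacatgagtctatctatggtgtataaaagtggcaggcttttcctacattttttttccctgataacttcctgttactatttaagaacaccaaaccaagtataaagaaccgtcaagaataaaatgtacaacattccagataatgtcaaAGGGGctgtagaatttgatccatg
The second AGGGG of GLC3 lies after the start of the gene. These 2 genes were picked for holding the element, and GPH1, with the largest rise of the general stress list, was passed over. AGGGG on either strand stood in 69.1% of 55 general stress windows (38 of them) and in 71.4% of 14 vacuolar hydrolase windows. It stood in 36.2% of all genes called higher, 11.8% of those called lower and 21.5% of all tested genes with a window.

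Breakdown pathways rose too, with the vacuole before the proteasome in size. All 14 genes of the vacuolar hydrolase list were higher, by a median of 1.39, though the windows of 4 of them overlapped and 9 passed without 90 min. AMS1, the vacuolar alpha-mannosidase, rose from 4.79, 3.84 and 3.31 log2 RPM to 6.59, 6.60 and 6.55 (2.60, SE 0.33, adjusted p = 0.000175). PAI3, counted in this list although it makes an inhibitor of proteinase A, rose by 2.28 (adjusted p = 0.000558). LAP4, the vacuolar aminopeptidase carried there by the autophagy machinery, rose by 2.22 (adjusted p = 0.000238). Of 32 autophagy genes 18 were tested, 13 were higher and 0 lower, with a median difference of 1.12. ATG34, a receptor that carries AMS1 to the vacuole, rose from 4.20, 3.26 and 3.07 to 5.67, 5.54 and 5.81 (2.17, SE 0.29, adjusted p = 0.000279), ATG33, needed for breakdown of mitochondria, by 1.98 (adjusted p = 0.000175) and YOR152C, the receptor for breakdown of the endoplasmic reticulum, by 1.85 (adjusted p = 0.000524). The 14 untested autophagy genes include 4 listed in none of the 6 libraries. Of 33 proteasome genes, 27 were higher and 0 lower, by a median of 0.87, led by PRE3, a catalytic subunit of the core (1.42, adjusted p = 0.00239), and by RPT2 and RPT3, ATPases of its cap (both 1.06, adjusted p = 0.00992 and 0.00869). This count was the least settled of the breakdown lists: 14 when libraries were centred on their median gene, 5 without 90 min, 5 without 105 min, 8 without 135 min and 12 without 150 min. RPN4, the activator of proteasome genes, named after its values were seen, was at 5.83, 5.84 and 5.69 early and 5.88, 6.06 and 5.93 late (0.17, adjusted p = 0.561).

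Of 24 chaperone genes under Hsf1, the heat shock factor, 23 were tested, 8 were higher and 0 lower (median difference 0.65). The share of higher genes was 34.8%, against 23.7% of all genes. SSE2 rose from 5.34, 5.18 and 5.35 log2 RPM to 7.68, 7.60 and 7.29 (2.23, SE 0.22, adjusted p = 6.7e-05), SSA4 by 1.84 (adjusted p = 0.0051) and SSA1 by 1.59 (adjusted p = 0.00892). SSA1 is near-identical to SSA2 and its reads were not whole. The count was 3 without 90, 105 or 135 min and 5 without 150 min. Centred on the median gene, 4 of the 23 were higher and 2 lower, against 15.6% and 16.5% of all genes.

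**Figure D4:**
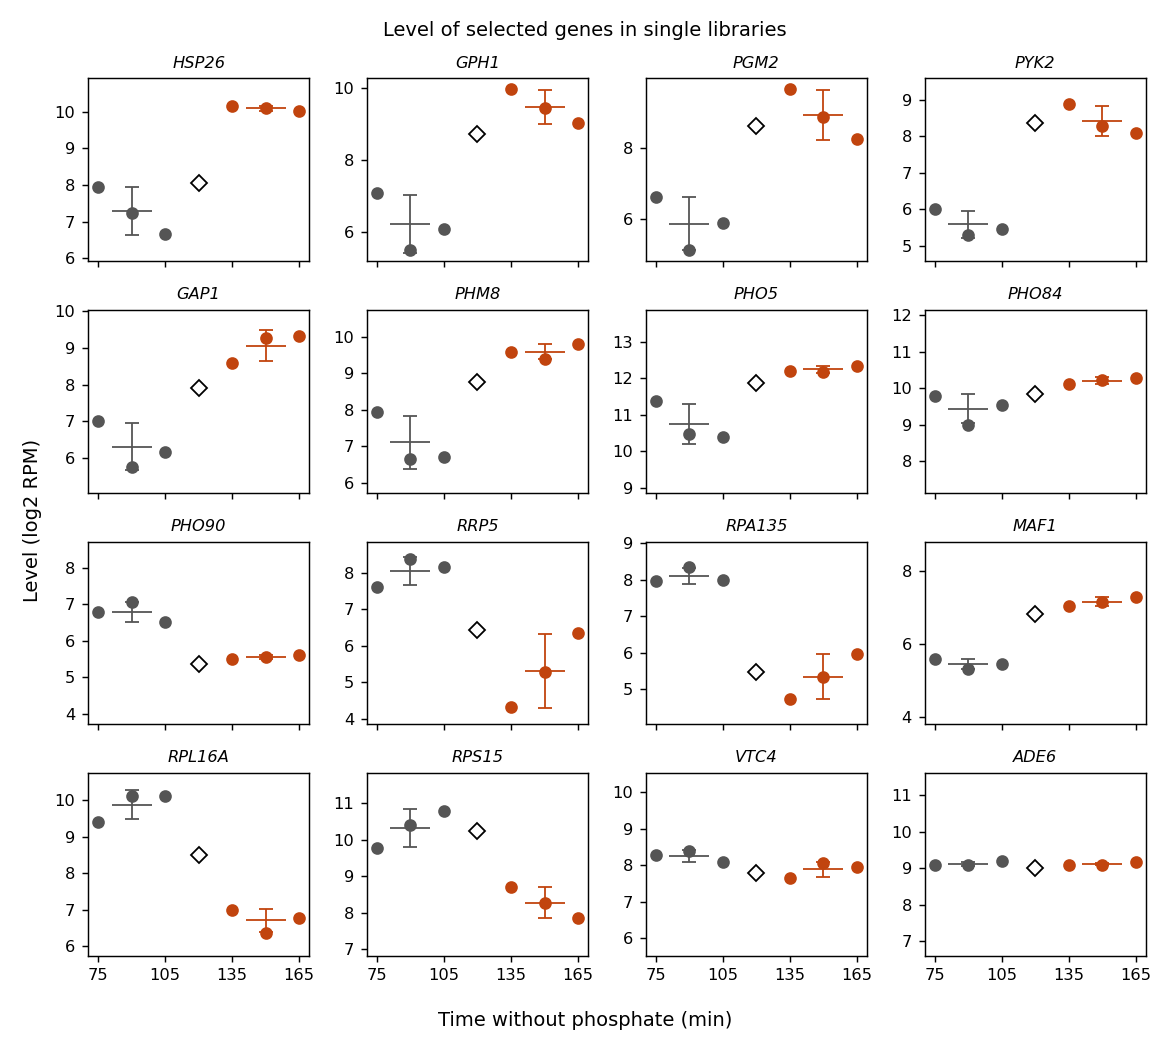
Level (vertical axis, log2 RPM) of 16 genes in the 7 libraries from 75 to 165 min (horizontal axis, min). Filled points are single libraries of the early and late windows, bars are the mean and SD of 3 libraries, and open diamonds are 120 min; vertical scales differ between panels. HSP26, GPH1, PGM2, PYK2, GAP1, PHM8 and MAF1 rise and PHO90, RRP5, RPA135, RPL16A and RPS15 fall without overlap of the windows, and ADE6 stays between 9.02 and 9.19.

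Genes of glycolysis and respiration rose in part. Of 22 glycolysis genes, 19 were tested, 13 were higher and 0 lower, with a median difference of 0.78. PYK2, the minor pyruvate kinase, rose from 6.01, 5.29 and 5.47 log2 RPM through 8.35 at 120 min to 8.88, 8.30 and 8.10 (2.84, SE 0.28, adjusted p = 6.7e-05). HXK1, a hexokinase that glucose represses, rose by 2.68 (SE 0.43, adjusted p = 0.000853), and ENO1, an enolase, by 2.55 (adjusted p = 0.000192), with reads it may share with ENO2. Of 13 genes in the hexose transporter list only 4 were tested, and another 4 were listed in none of the 6 libraries. HXT7, a high-affinity hexose transporter, was the 1 of the 4 tested that rose (1.62, adjusted p = 0.00239). That is a share of 25%, near the 23.7% of all genes. The reads of HXT7 were whole in 2 of 6 libraries, and 1 of the 4 tested genes was lower when centred. The glycolysis count was 7 without 90, 105, 150 or 165 min and 7 when centred on the median gene. Of 28 genes of the TCA and glyoxylate cycle, 20 were tested and 12 were higher. LSC2, a succinyl-CoA ligase subunit, rose by 1.74 (adjusted p = 0.000687) and SDH3, of succinate dehydrogenase, by 1.21 (adjusted p = 0.00565). Without 90, 105, 150 or 165 min the higher count was 4, 7, 6 and 7, and centred on the median gene it was 7. Of 39 genes of the respiratory chain and ATP synthase, 36 were tested, 17 were higher and 0 lower, with a median difference of 0.63. CYC7, the cytochrome c made when oxygen is low, rose from 4.79, 4.02 and 3.65 to 7.36, 6.87 and 6.40 (2.73, SE 0.33, adjusted p = 0.000139). STF1, a modulator of the ATP synthase, rose by 1.88 (adjusted p = 0.00225), and COX5B, the low-oxygen form of a cytochrome oxidase subunit, by 1.73 (adjusted p = 0.00221). That count was 7 without 90 min, 10 without 150 min, 10 without 165 min, 11 without 105 min and 9 when centred on the median gene. NDE2, an external NADH dehydrogenase, was listed in the late window only, at 6.12, 5.20 and 4.87 log2 RPM, at least 4.34-fold above the mean early listing limit. Of 68 mitochondrial ribosome genes, all tested, 9 were higher, a share of 13.2% that lies under the 23.7% of all genes, and the count was 25 without 75 min and 2 without 90 min, 4 without 105 min, 3 without 135 min and 5 without 165 min. With median centring, 4 were higher and 1 lower.

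Genes for the use of poor nitrogen sources rose, while the labels name no change of nitrogen source. Of 27 genes under nitrogen catabolite repression, which holds back the use of poor nitrogen sources, 16 were tested, 11 were higher and 0 lower, with a median difference of 1.22. GAP1, the general amino acid permease, went from 7.01, 5.74 and 6.14 log2 RPM through 7.92 at 120 min to 8.58, 9.27 and 9.34 (2.77, SE 0.33, adjusted p = 0.000139). DUR1_2, which makes the enzyme that splits urea, rose by 2.12 (adjusted p = 0.000497) and the amino acid permease AGP1 by 1.89 (adjusted p = 0.000482). Of 8 genes for breakdown of aromatic amino acids, 6 were tested and 3 rose: ADH5 (2.01), ARO10 (1.98) and ARO9 (1.19). This share of 50%, against 23.7% of all genes, rests on 6 genes. Of 58 amino acid synthesis genes, 57 were tested, 9 were higher and 7 lower, which are shares of 15.8% and 12.3% against 23.7% and 12.1% of all genes. After centring on the median gene, 5 were higher and 13 lower. LYS1 and HIS4 rose by 1.38 and 1.37, and LEU9 fell by 1.73 (adjusted p = 0.00074). The call of LYS1 was lost without 90 min or 105 min (adjusted p = 0.0647 and 0.0613). The 2 counts were 3 and 1 without 90 min, 4 and 4 without 105 min, 6 and 3 without 135 min, and 5 and 3 without 150 min.

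The purine genes moved in both directions. Of 18 genes 6 were higher and 4 lower, shares of 33.3% and 22.2% against 23.7% and 12.1% of all genes. The higher count was 9 without 75 min and 4 without 90, 105 or 150 min. Centred on the median gene, 5 were higher and 4 lower, against 15.6% and 16.5% of all genes. ADE17, of the last steps to inosine monophosphate, rose from 8.37, 7.16 and 6.83 log2 RPM to 9.35, 9.59 and 9.45 (2.0045, SE 0.34, adjusted p = 0.00118), MTD1, of one-carbon supply, by 1.59 (adjusted p = 0.000417) and ADE12, the first enzyme of the AMP branch, by 1.20 (adjusted p = 0.00628). GUA1, of the GMP branch, fell from 8.51, 9.03 and 8.81 to 5.81, 6.84 and 7.51 (-2.06, SE 0.37, adjusted p = 0.00142). IMD4 and IMD3, enzymes of the step before GUA1, fell by 1.90 and 0.96 (adjusted p = 0.000431 and 0.00472), with reads that near-identical copies may share. BAS1, an activator of the pathway, fell by 1.07 (adjusted p = 0.012), and lost its call without 90 min (0.0525). Of 24 sulfur assimilation genes, 16 were tested and 4 rose, a share of 25.0% near the 23.7% of all genes, a count of 8 without 75 min, 0 without 90 or 105 min, 2 without 135 min, 1 without 150 min and 2 without 165 min. After centring on the median gene, 2 were higher and 4 lower.

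Lipid and iron genes moved less. Of 25 ergosterol genes 24 were tested, 9 were higher and 0 lower, led by ERG28 (1.504, adjusted p = 0.00228). The share of higher genes was 37.5%, against 23.7% of all genes. The count was 2 without 90 min, 4 without 105 min, 3 without 150 min and 5 without 165 min. Centred on the median gene, 4 of the 24 were higher, near the 15.6% of all genes. Of 20 phospholipid genes, 18 were tested and 4 were higher, a share of 22.2% near the 23.7% of all genes, led by OPI3, of phosphatidylcholine synthesis (1.59, adjusted p = 0.00177), and PAH1, the phosphatidate phosphatase (1.48, adjusted p = 0.00222). CDS1, which makes CDP-diacylglycerol from the same substrate as PAH1, was the 1 that fell, from 6.20, 6.08 and 5.89 log2 RPM to 5.33, 5.24 and 5.33 (-0.76, SE 0.21, adjusted p = 0.0168), a call lost without 90 min or 150 min (0.0694 and 0.073). The phospholipid higher count was 2 without 90 min. Of 25 iron regulon genes, 16 were tested and 3 were higher, a share of 18.8% below that of all genes, led by the siderophore transporter ENB1 (1.41, adjusted p = 0.00169), and 1 was without 135 min.

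Few cell cycle genes were called, against a background of 23.7% higher and 12.1% lower. Of 28 tested G1 and S phase genes 3 were higher, of 17 G2 and M phase genes 1, and of 10 histone genes 1 was lower, HTB2 (-0.83, adjusted p = 0.028), which lost its call without 90, 135 or 150 min (0.0876 to 0.136). Without 105 or 165 min 2 histone genes were lower, and centred on the median gene 5 of the 10, against 16.5% of all genes. Centred, 1 G1 and S phase gene was higher and 1 lower, and 0 G2 and M phase genes were higher and 2 lower. The G1 and S phase count was 8 without 75 min and between 0 and 3 without another library. The G2 and M phase count was 0 without 90 or 135 min. Of 17 tested genes of daughter cells leaving mitosis, 7 were higher, a share of 41.2%, led by PST1, a cell wall protein gene (1.47, adjusted p = 0.00163). The count was 2 without 90 min, 3 without 105 min and 3 without 150 min. Centred on the median gene, 3 of the 17 were higher, against 15.6% of all genes. Of 9 reference genes of the kind used to scale other measurements, 0 were called by limma, 1 at an unadjusted p under 0.05, and 1 without 75 min. Their median difference was -0.08, while that of all tested genes was 0.28.

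Among 43 regulators of growth and stress, 28 were tested, 11 were higher and 1 lower, with a median difference of 0.49. These are shares of 39.3% and 3.57%, against 23.7% and 12.1% of all genes. Centred on the median gene, 8 of the 28 were higher and 3 lower, against 15.6% and 16.5% of all genes. BCY1, the inhibitory subunit of protein kinase A, rose by 1.22 (adjusted p = 0.0116, and 0.0535 without 90 min). TPK2, a catalytic subunit, rose by 0.94 (adjusted p = 0.0165), a call lost without 105, 135 or 150 min (0.0544 to 0.071). TPK3, also a catalytic subunit, was at 7.53, 7.39 and 7.26 log2 RPM early and at 6.78, 7.01 and 6.95 late, without passing (-0.48, adjusted p = 0.0972). MSN4, an activator of the stress genes, rose from 4.34, 3.39 and 3.52 to 4.81, 5.08 and 5.50 (1.38, SE 0.29, adjusted p = 0.00406), and its partner MSN2 differed by 0.04 (adjusted p = 0.926). The nitrogen regulators DAL80 and GAT1 rose by 1.61 and 1.31 (adjusted p = 0.00177 and 0.00749). STB3, named above as a binder of AAAATTTT, rose by 1.01 (adjusted p = 0.00383), while DOT6, a binder of GATGAG, differed by -0.03 (adjusted p = 0.924). IGO1, TOR1 and HSF1 rose by 0.75, 0.73 and 0.74 and RAS1 fell by 0.94, and each of these 4 lost its call without 90, 105 or 135 min, as did IGO1 and TOR1 without 150 min and HSF1 and RAS1 without 165 min (adjusted p between 0.053 and 0.154). Centred on the median gene IGO1, TOR1 and HSF1 did not pass either (0.0519 to 0.0923), while TPK3 and SCH9 passed as lower (0.0143 and 0.0168) and 3 regulators were lower in all. On the original scale neither SCH9 (-0.61, adjusted p = 0.0669) nor RAP1 (-0.31, adjusted p = 0.38), IFH1 (-0.24, adjusted p = 0.431), GCN4 (-0.30, adjusted p = 0.318) or GLN3 (0.35, adjusted p = 0.468) passed. With 90 or 105 min left out 7 regulators were higher.

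The 120 min library fell between the windows, at a point that differed between lists. For each called gene with a difference of at least 1 on the log2 scale, its position was set at 0 for the early mean and 1 for the late mean. The median position was 0.66 over 546 higher genes and 0.75 over 389 lower ones. With libraries centred on the median gene these were 0.78 and 0.66, in the opposite order, so neither direction is read as earlier. Ribosome biogenesis genes stood near their late mean at 120 min, with a median of 1.04 (quartiles 0.86 and 1.20, 110 genes; 0.91 when centred), and polymerase I and III genes at 1.00. Against the early mean, the ribosome biogenesis list had a median of -1.53 in the 120 min library and of -1.70, -1.48 and -1.06 in the 3 late ones, so it was lowest at 135 min. Ribosomal protein genes were nearer their early mean, with a median of 0.22 (0.14 to 0.34, 134 genes; 0.21 when centred). The quartile ranges of these 2 lists did not overlap. Trehalose and glycogen genes stood at 0.88, PHO regulon genes at 0.76 over 9 genes, general stress genes at 0.75, autophagy genes at 0.54 and translation factors at 0.46. Without 75 min in the early mean the medians were 1.04 for ribosome biogenesis and 0.31 for ribosomal proteins. The genes with the highest and lowest positions were picked for them and are given as examples. DRS1, a helicase of ribosome assembly, was at 6.92, 7.19 and 6.76 log2 RPM early, 4.60 at 120 min and 3.88, 5.48 and 4.99 late, a position of 1.08. RPS15 was at 9.76, 10.40 and 10.79 early, 10.24 at 120 min and 8.72, 8.27 and 7.86 late, a position of 0.04. RPS24A, RPS0A and RPL8B were at 0.01, 0.02 and 0.07. Among rising genes AIM17, EMI2 and HSP42 were already past their late mean at 120 min, at 1.17, 1.11 and 1.09. Genes named for the size of their fall lay between, RRP5 at 0.59 and RPS14B at 0.56. There is 1 library at 120 min, so a position has no error of its own.

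**Figure D5:**
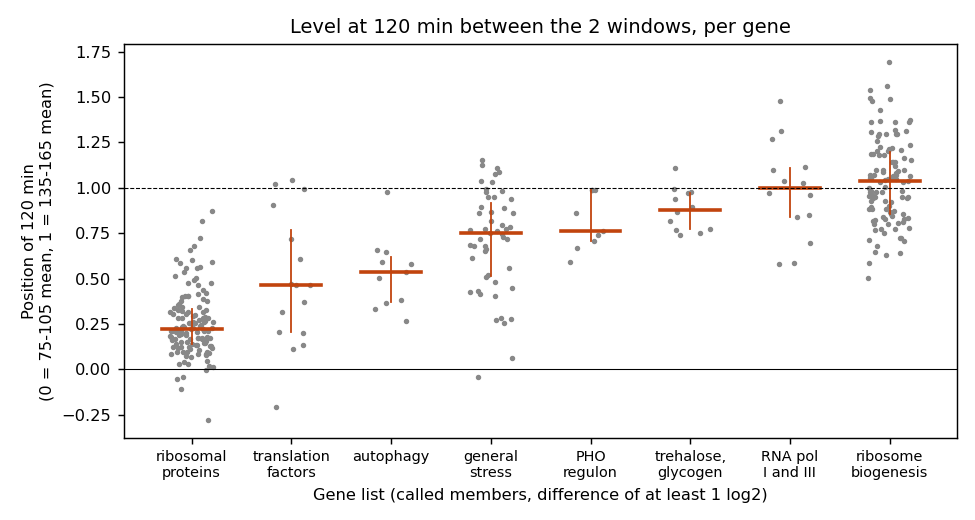
Position of the 120 min library between the mean of 75 to 105 min (0) and the mean of 135 to 165 min (1) on the vertical axis, 1 point per called gene with a difference of at least 1 on the log2 scale, for 8 gene lists. Red bars are medians and red lines quartiles; ribosomal protein genes sit at a median of 0.22 and ribosome biogenesis genes at 1.04.

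Most changes lasted. The median level from 180 to 360 min lay past the midpoint of the 2 windows, on the late side, for 991 of 1060 higher genes (93.5%) and for 448 of 542 lower genes (82.7%). General stress genes stayed at a median position of 1.09 (54 of 54 past the midpoint), ribosomal protein genes at 1.08 (135 of 135), and PHO regulon genes at 1.03 (15 of 15). Ribosome biogenesis genes recovered part of their fall, with a median position of 0.60 and 108 of 132 past the midpoint, and polymerase I and III genes stood at 0.57 and proteasome genes at 0.61 (18 of 27). HSP26 went on rising, to a median of 11.69 log2 RPM after 165 min. Called genes whose later median went back beyond the early mean were COX17 and CDC9 among the higher genes and YER064C, GCD6 and UTP25 among the lower, named because they were so few. Of these, COX17 and CDC9 were not called when centred on the median gene.

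Listing in only 1 window marks further changes near the limit of depth. In all, 12 genes were listed in the 3 late libraries and in none of the early ones, and 7 the reverse. Besides NDE2, the late genes with the highest means were YDR034W-B (at least 4.15-fold above the mean early limit), YGR174W-A (at least 3.03-fold), AVT2 (at least 2.40-fold) and IRC4 (at least 1.98-fold). Besides RPS28B and IMP3, the early ones were YMR013W-A, YOL013W-A and HUR1, the last overlapping PMR1. These folds set the mean log2 level against the mean of the 3 log2 listing limits of the other window, and cover counting only.

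Some abundant genes kept nearly the same value. Among genes with a mean of at least 8 log2 RPM, those with the narrowest 95% intervals of the difference within -0.5 and 0.5 were ADE6, ARF1, SPE3, SSS1 and VPH1. ADE6, of purine synthesis, was at 9.09, 9.08 and 9.19 log2 RPM early and at 9.09, 9.10 and 9.16 late. ARF1, a small GTPase of the Golgi, was at 10.19, 10.08 and 10.24 and at 10.13, 10.12 and 10.27. On the median-centred scale each of the 5 differences is lower by the shift of 0.24.

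The other elements searched in the windows around gene starts were less often concentrated. CACGTG, the core bound by Pho4, stood in 3 of 17 tested PHO regulon windows (17.6%, 95% exact interval 3.80% to 43.4%) against 3.39% of all, and CACGTT, a weaker form, in 5.88% against 9.18%. Many PHO promoters reach further upstream than the 250 bases read here. CCAAT, bound by the Hap complex, stood in 80.6% of 36 respiratory chain windows against 44.6% of all. GATAAG, bound by nitrogen regulators, stood in 18.6% of higher and 8.77% of lower genes against 14.7% of all, and AGGGAT, bound by Gis1 and Rph1, in 14.4% and 4.29% against 9.32%. TGACTC, bound by Gcn4, stood in 10.0% of higher and 7.84% of lower genes against 8.52% of all, and ACGCGT, of S phase genes, in 1.73% and 1.12% against 3.09%. The shares among higher and lower genes were 12.5% and 13.1% for the heat shock element TTCNNGAA against 13.4%, 0.289% and 0.933% for ACCCATACA, of Rap1, against 0.455%, and 4.24% and 4.85% for CGGNTAAA against 3.91%. Both strands were read. The median gene length was 1110 bases for higher genes, 1098 for lower genes and 1308 for genes not called, with no test made.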

How the data were processed

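The libraries were made from total RNA and sequenced on an Illumina HiSeq, per the labels' protocols, and the submitters' processing notes name Bowtie and R64. The version of Bowtie, the annotation and the counting tool are not given in the sources used. The authors deposited log2 RPM per gene. The series' design text speaks of scaling to the first time point, but the deposited values are levels and not ratios to it. That these are log2 reads per 1000000 listed reads, with genes under 10 reads left without a value, follows from the sums and spacing of the deposited values, of which 94% to 95% were whole reads within 0.02; no count test was run. Of 6701 rows, 51 had no name and 2 shared one; 5962 of 6648 genes matched the R64 annotation, whose gene coordinates include introns. Genes listed in all 6 libraries entered a linear model (lmFit and eBayes of limma 3.58.1, R 4.3.3) with 135 to 165 min against 75 to 105 min as the only term, and p-values were Benjamini-Hochberg adjusted over 4482 genes at 0.05. The script was tested on simulated data. The median SE of a difference was 0.25. The windows, the 39 gene lists and the motifs were chosen with earlier results of these data known, so a list is described by its counts. Genes named are the 12 largest differences each way without overlap, up to 3 members of each list each way and members against their list, all phosphate signalling and growth regulators, up to 5 genes listed in 1 window only, the 4 highest and 4 lowest positions at 120 min and 5 genes with narrow intervals; other names are said to be chosen after their values were seen. Alternatives covered scaling, filters, a pseudocount of 10 RPM, the variance model, a fit of all 25 libraries and each library left out. Some genes that this rule names are not reported here.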

Additional observations from a re-analysis of the deposited data

How the results depend on the processing

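Centred on the median of genes listed in all 6 or all 25 libraries, 697 and 668 genes were higher, and with the latter 9 PHO regulon genes, 83.9% of higher and 93.4% of lower genes past the midpoint after 165 min, where the median without the shallow 195 and 345 min libraries, chosen after seeing the data, gave 92.7% and 84.5%. The 2 centrings gave AGGGG in 42.0% and 42.4% of higher genes, and among lower genes GATGAG in 44.4% and 44.4% and AAAATTTT in 36.2% and 36.0%; with no filter AGGGG was 39.3%. Without 1 library in turn, higher genes ranged from 550 to 1506, PHO regulon genes from 6 to 16 and AGGGG from 32.1% to 44.7%. Of 144 named genes called, 103 kept their call and direction in all 14 settings. Only genes near 0 that were not called changed sign: centred on genes of all 6 and all 25 libraries, ARF1 was at -0.23 and -0.25, MSN2 at -0.20 and -0.21, RPH1 at -0.22 and -0.23, TOR2 at -0.0673 and -0.0799 and GZF3 at -0.0025 in the latter. Without 1 library, ADE6 ranged from -0.0228 to 0.0332, ARF1 from -0.0433 to 0.0424, DOT6 from -0.106 to 0.0708, MSN2 from -0.218 to 0.255, RPH1 from -0.143 to 0.18, SPE3 from -0.0931 to 0.0284, SSS1 from -0.123 to 0.0778, VPH1 from -0.103 to 0.0386 and YER130C from -0.326 to 0.0890. The cause was not tested. No paired analysis was possible because time points carry no replicate numbers that link the windows. Depth limits genes near 10 reads.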

Other observations

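In several pairs of genes for the same reaction, the 2 members moved unlike each other between 75 to 105 min and 135 to 165 min. These pairs were chosen after their values were seen, the differences are on the log2 scale, and the difference within a pair was not tested. PYK2 rose by 2.84, and CDC19, the main pyruvate kinase, differed by 0.30 (adjusted p = 0.383). PGM2 rose by 3.06, and PGM1, the minor phosphoglucomutase, differed by -0.15 (adjusted p = 0.66). HXK1 rose by 2.68 and HXK2 differed by 0.14 (adjusted p = 0.63). GPM2 and GPM1, for phosphoglycerate mutase, rose by 2.55 and 0.81, the latter not passing when libraries were centred on their median gene (adjusted p = 0.0536). CYC7 rose by 2.73 and CYC1, the main cytochrome c gene, differed by 0.37 (adjusted p = 0.301), and COX5B rose by 1.73 while COX5A differed by 0.56 (adjusted p = 0.122). GND2, a dehydrogenase of the pentose phosphate pathway, rose by 2.58, and GND1 differed by -0.35 (adjusted p = 0.269). URA10, an orotate phosphoribosyltransferase gene, rose by 2.15 (adjusted p = 0.000451), and URA5, for the same enzyme, fell by 0.85 (adjusted p = 0.0111). The reads of both members were whole in all 6 libraries in each of these pairs.

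Outside the gene lists, and again chosen after their values were seen, several nucleotide and sugar phosphate genes stood among the largest falls. URA7, for CTP synthase, was at 7.83, 7.92 and 7.68 log2 RPM at 75, 90 and 105 min and at 4.23, 5.35 and 5.81 at 135, 150 and 165 min (-2.68, SE 0.35, adjusted p = 0.000211). AAH1, adenine deaminase, fell by 2.501 (adjusted p = 7.73e-05) and RKI1, ribose-5-phosphate isomerase, by 2.43 (adjusted p = 8.61e-05). TRZ1 and DUS3, which process and modify transfer RNA, were also among the 10 largest falls outside the lists. Among the 10 largest rises there, GAD1, glutamate decarboxylase, went from 6.79, 5.76 and 5.76 to 9.01, 8.48 and 8.18 (2.46, SE 0.32, adjusted p = 0.000224).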
